A study of Caenorhabditis elegans with 2 samples.

Results

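The genes described here are the Caenorhabditis elegans protein disulfide isomerase genes pdi-1, pdi-2, pdi-3 and pdi-6 and the ER oxidoreductin gene ero-1, which supply and shuffle disulfide bonds in the endoplasmic reticulum (ER). They were picked by name, with earlier results of these data known, and are 5 of 19973 protein-coding genes of the nuclear genome. The data are lists of regions from chromatin immunoprecipitation followed by sequencing (ChIP-seq) of LET-607, a bZIP protein and the C. elegans relative of mammalian CREB3 factors. The series has 1 group of 2 biological replicates and no untreated or mutant group to set it against. Both replicates were whole worms of strain YL651, which carries the let-607(tm1423) and unc-119(ed3) alleles and the integrated transgene vrIs121, a LET-607 fosmid with unc-119(+). The fosmid copy adds a GFP-FLAG tag at the C terminus of LET-607, and precipitation was with an antibody against GFP per the sample descriptions, while the antibody field of the labels names let-607. The worms were hatched by bleaching, held as starved L1 larvae, and taken as young adults of 49.5 hours with males and females pooled. All values come from 1 transgenic line in a let-607 mutant background, and with the antibody against GFP they are those of the tagged protein. Whole worms were used, so a site bound in few cells and a site bound weakly in many cannot be told apart.

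Proteins that enter the secretory pathway form disulfide bonds in the ER. Protein disulfide isomerases pass a disulfide from their own active-site cysteines to the client and rearrange bonds that joined the wrong cysteines. ERO1-type oxidases then reoxidise the isomerase at the cost of molecular oxygen. In C. elegans the product of pdi-2 also serves as a subunit of the prolyl 4-hydroxylases that modify cuticle collagen. Factors of the CREB3 family are made as ER membrane proteins in mammals, and their released N-terminal part binds DNA, with ACGT as a common core of bZIP binding sites.

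The sequence under the strongest LET-607 summit of 3 isomerase genes is shown first, because the genes differ in the short elements it holds. Each line runs 5′ to 3′ on the strand of the gene and was read from the RefSeq WBcel235 assembly, which is ce11. Capitals mark ACGT, the element TGACG that can overlap it, the element CCACG, and the box CCAAT, on either strand. The last line gives C14B9.2, a further isomerase gene with a region above the authors' threshold, for comparison. The windows are chrIII:3701737-3701837 (minus strand) for pdi-1, chrX:4524082-4524182 (plus strand) for pdi-2, chrX:7068534-7068618 (minus strand) for pdi-6 and chrIII:8133490-8133590 (plus strand) for C14B9.2. Each window holds the summit and 50 bp on either side of it, but the line of pdi-6 was stopped 30 bp into the transcript and is 85 bp long.
pdi-1: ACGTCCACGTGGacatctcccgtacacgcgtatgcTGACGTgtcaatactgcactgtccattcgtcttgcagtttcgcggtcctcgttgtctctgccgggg
pdi-2: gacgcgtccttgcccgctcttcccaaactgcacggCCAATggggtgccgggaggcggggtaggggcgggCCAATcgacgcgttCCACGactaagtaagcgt
pdi-6: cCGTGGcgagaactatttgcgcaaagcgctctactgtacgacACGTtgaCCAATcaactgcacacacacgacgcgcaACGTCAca
C14B9.2: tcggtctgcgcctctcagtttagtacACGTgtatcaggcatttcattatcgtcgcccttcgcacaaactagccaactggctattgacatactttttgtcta

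All 4 isomerase genes had a LET-607 region above the authors' reproducibility threshold, and the oxidase gene ero-1 did not. A gene was called when it had an annotated start with a thresholded summit in the window that runs 1000 bp upstream and 200 bp downstream of it. By this rule 4 of the 5 genes (80.0%) were called, against 960 of 19973 protein-coding genes (4.81%). All 5 had at least a candidate region in the pooled list, and of the 7783 protein-coding genes with 1 there, 12.3% were called. The pooled and replicate lists were deposited as peaks and background for the threshold step, so a candidate can be background. The count is a description without a test. The median signal of the 4 called genes was 1557, against 174 over all 960 called genes. The signal is the deposited value of the authors' peak caller, in the caller's own unit, and is used here to describe and rank regions within a list.

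**Figure D1:**
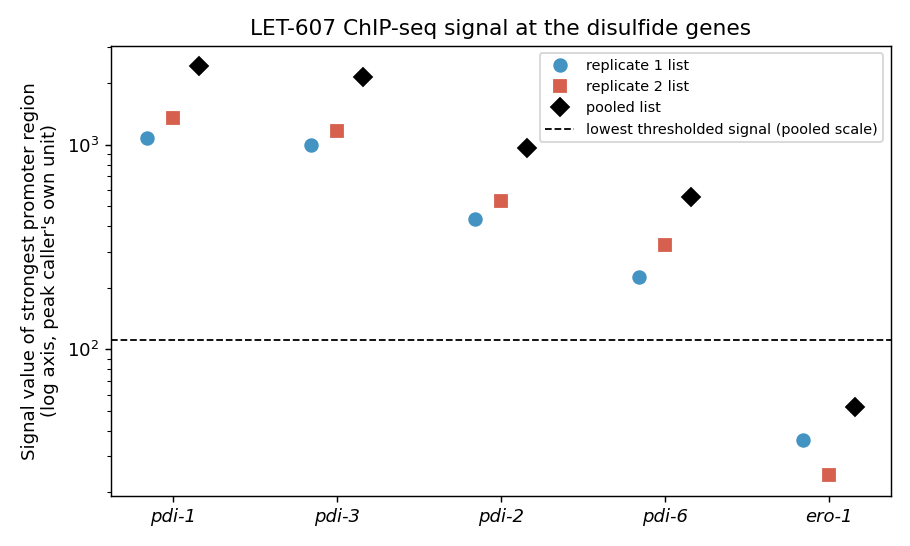
Deposited signal (log axis, peak caller's own unit) of the strongest promoter region of each gene in the replicate 1, replicate 2 and pooled lists. The dashed line is the lowest thresholded signal on the pooled scale, 111. In each list the order is pdi-1, pdi-3, pdi-2, pdi-6, ero-1, and the pooled value of ero-1, 52.1, lies under the line.

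pdi-1 encodes a protein disulfide isomerase of 485 residues and had the strongest region of the 5 genes. In C. elegans it is known to be transcribed in an operon with cyn-9, a cyclophilin gene. Its region at chrIII:3701566-3702009 had a signal of 2414 and ranked 11 among the 1488 thresholded regions. The signal was 1084 in replicate 1 and 1344 in replicate 2, a mean of 1214 ± 184 (SD, n = 2), and the region ranked 11 in each replicate list. It reached 35.2% of the strongest region in the list and 15.2 times the list's median of 158. The summit, at 3701787, was intergenic and 326 bp upstream of the single annotated start.

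pdi-3, whose product of 488 residues is related to the mammalian isomerase ERp57, came close behind. Its region at chrI:7021203-7021649 had a signal of 2154 and rank 13. The signal was 995 in replicate 1 and 1169 in replicate 2 (mean 1082 ± 123, SD, n = 2), with ranks of 13 and 14. The summit, at 7021421, lay 624 bp upstream of the outer start of pdi-3, in exons of the overlapping non-coding RNA genes VF15C11L.1 and VF15C11L.2, which run in opposite directions. The values of pdi-1 and pdi-3 overlapped across the replicates. The replicate lists differ in scale, however, with a median ratio of replicate 2 over replicate 1 of 1.20 over matched regions. Within each replicate pdi-1 was the higher of the pair, by 1.09-fold and 1.15-fold. This small gap was not tested.

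pdi-2 encodes the isomerase of 493 residues that doubles as a collagen hydroxylase subunit. Its region at chrX:4523936-4524293 had a signal of 961 and rank 38. The signal was 435 in replicate 1 and 529 in replicate 2 (mean 482 ± 66.8, SD, n = 2), with ranks of 36 and 38. Both replicate values lay under both values of pdi-3, which was 2.29-fold and 2.21-fold higher within replicates 1 and 2. The summit, at 4524132, was 23 bp upstream of the outer of 2 starts and in the exon of the non-coding RNA gene C07A12.19, which overlaps the 5′ end of pdi-2 on the same strand.

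pdi-6, which encodes an isomerase of 440 residues of the type of mammalian PDIA6, had the weakest of the 4 thresholded regions. It lay at chrX:7068451-7068687, with a signal of 554 and rank 77. The signal was 226 in replicate 1 and 322 in replicate 2 (mean 274 ± 68.4, SD, n = 2), with ranks of 83 and 80. Both values lay under both values of pdi-2. The summit, at 7068568, was 5 bp upstream of the single start, and the region was the narrowest of the 4, at 237 bp against 358 to 447 bp for the other three.

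ero-1 encodes the oxidase that recharges the isomerases, as proteins of 250 to 513 residues from 3 annotated starts. It had no thresholded region within reach of any of them. Its strongest pooled candidate, at chrI:14670441-14670844, had a signal of 52.1 and ranked 10301 of 30000, and 65.7% of the pooled candidates were weaker. The lowest thresholded signal, 111 at rank 1488, was 2.13-fold higher, and the strongest pooled region outside the threshold followed at rank 1489. The ero-1 candidate lay in an intron, 638 bp upstream of the innermost start, and no pooled candidate was in the windows of the outer starts. The replicate 2 list held a weak region there, 568 bp upstream of an outer start, with a signal of 23.2 at rank 20277. In replicate 1 the strongest candidate had a signal of 36.2 at rank 5371 (−log10 q-value 0.580). In replicate 2 it had a signal of 24.3 at rank 18209 (−log10 q-value 0.0720). These 2 regions overlapped only at their ends, with summits 389 bp apart, and the pooled region overlapped both. The nearest thresholded summit was 88849 bp away. Neither was among the 1488 strongest of its list, and read depth is unknown.

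**Figure D2:**
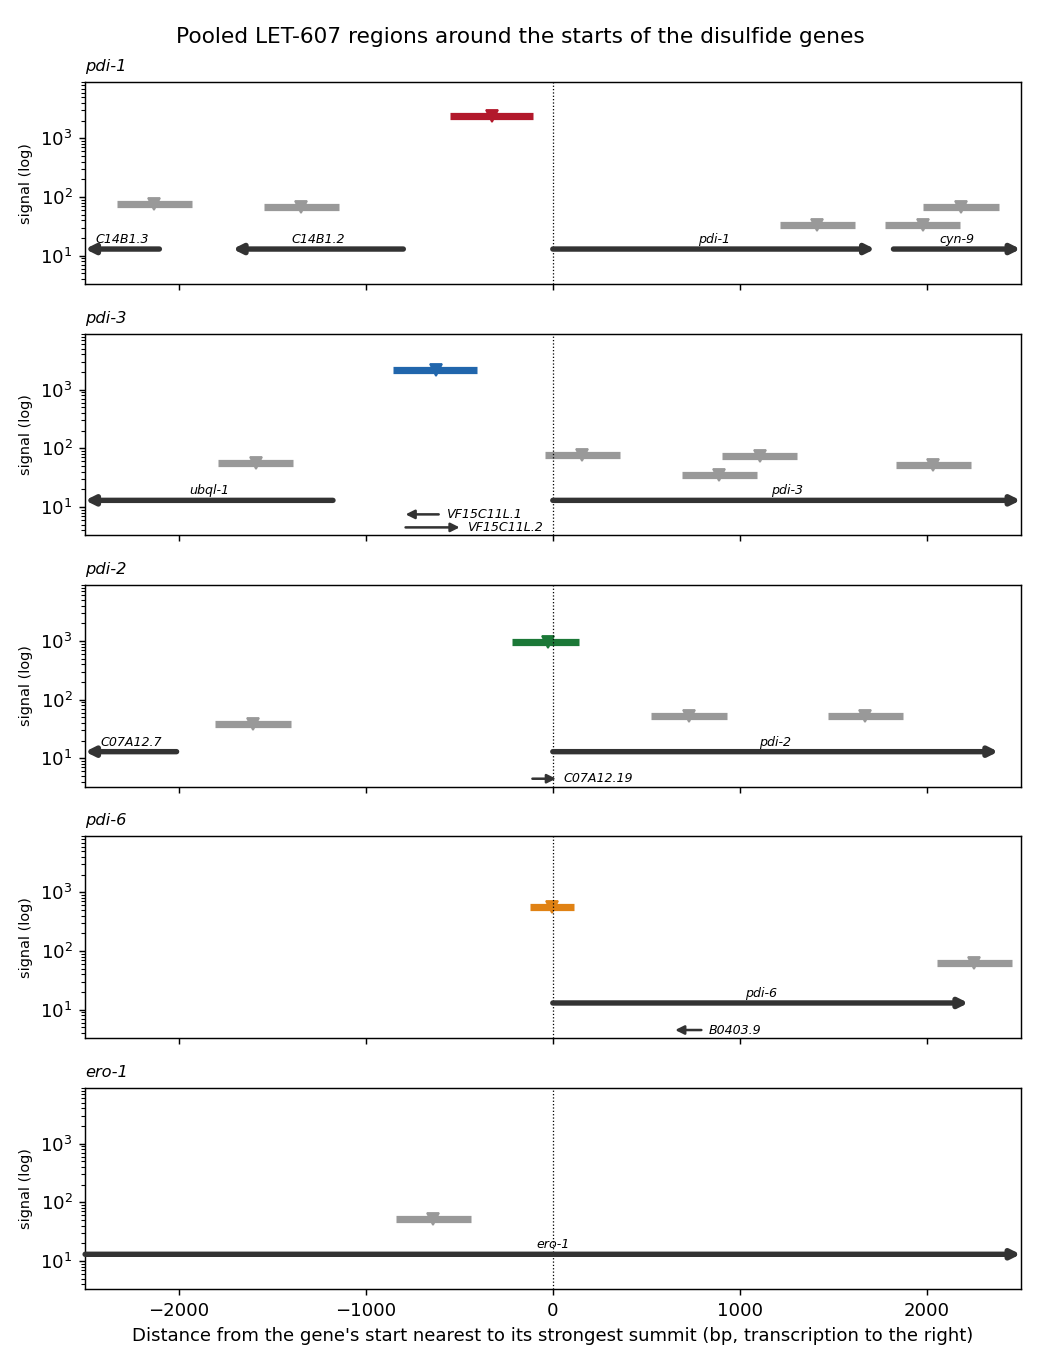
Pooled LET-607 regions within 2500 bp of the start nearest to each gene's strongest summit (x axis, bp, transcription to the right; y axis, signal on a log scale). Horizontal bars span each region and triangles mark its summit, coloured where the region is thresholded and grey where it is a candidate only. Thick arrows are protein-coding genes and thin arrows non-coding RNA genes, at arbitrary height. Each pdi gene has 1 coloured region, upstream of or at its start, and ero-1 has a single grey candidate at 52.1.

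The summits fell into a distal and a proximal pair. Those of pdi-1 and pdi-3 were 326 and 624 bp upstream of the start, in the gap to a divergent neighbour. Those of pdi-2 and pdi-6 were 23 and 5 bp from the start. The position was close to the same in both replicates, with summits 9 to 21 bp apart at the 4 genes. The bodies of all 5 genes held 0 thresholded summits. The strongest pooled candidate in any of them was 76.2, over the start of pdi-3 and within its promoter window.

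Both distal regions also stood in the window of another gene. The pdi-1 summit was 473 bp upstream of C14B1.2, a divergent gene 798 bp away that RefSeq names a conserved plasma membrane protein. The pdi-3 summit was 551 bp upstream of ubql-1, the divergent ubiquilin gene 1174 bp away, and so nearer to ubql-1 than to pdi-3. A region in a shared promoter does not show which gene it serves. When each summit counted only for the nearest start, 3 of the 5 genes were called, against 3.83% of all protein-coding genes, and pdi-3 was the gene lost. With a window of 500 bp upstream to 100 bp downstream the same 3 genes remained, against 3.64%. With 2000 bp upstream to 500 bp downstream (6.71% of all protein-coding genes called), with any overlap of region and window (5.4%) or with the 744 strongest regions alone (2.8%), 4 of the 5 were called. The regions of pdi-2 and pdi-6 stood in no other protein-coding gene's window.

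The nearest upstream genes on the same strand were C14B1.8 for pdi-1, W01A8.2 for pdi-3, spr-3 for pdi-2, B0403.6 for pdi-6 and Y105E8B.6 for ero-1, at distances of 1307 to 32890 bp, and none was called. cyn-9 begins 98 bp downstream of pdi-1 on the same strand and was not called on its own. The next thresholded summit was 47067 to 108474 bp from those of pdi-1, pdi-3 and pdi-6. For pdi-2 it was 8254 bp away, at the nuclear receptor gene nhr-35, with a signal of 275.

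The 4 genes were called in each replicate alone. Among the 1488 strongest regions of replicate 1, which called 4.71% of all protein-coding genes, and of replicate 2, which called 4.83%, the same 4 of 5 genes had a region and ero-1 had none. The signal of replicate 2 over that of replicate 1 was 1.24 at pdi-1, 1.17 at pdi-3, 1.22 at pdi-2 and 1.43 at pdi-6. Over the 1479 thresholded regions found in both lists the median ratio was 1.20, and over the 100 strongest it was 1.29, so all 4 genes lay within the middle range (1.03 to 1.84, 5th to 95th percentile) of the strongest regions. The signal in the pooled list was 0.994 to 1.01 times the sum of the 2 replicate signals at these genes. The thresholded list was made from the same replicates, which favours their agreement by construction.

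**Figure D3:**
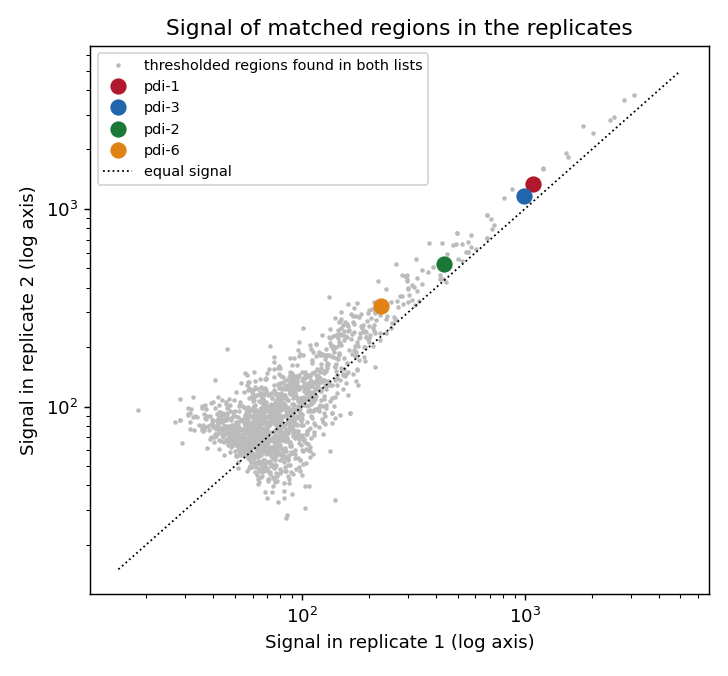
Signal of the 1479 thresholded regions found in both replicate lists (grey points), replicate 1 on the x axis and replicate 2 on the y axis, both log axes in the peak caller's own unit. The coloured points are the 4 pdi genes, which lie above the line of equal signal, at ratios of 1.17 to 1.43.

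Copies of ACGT in the summit windows did not follow the order of the signal. ACGT was in the windows of pdi-1 (3 copies), pdi-3 (2) and pdi-6 (2), with the nearest copy centred 11.5, 13.5 and 6.5 bp from the summit. It was in neither pdi-2 nor the ero-1 candidate. Of all 1488 thresholded windows 34.1% held it, as did 63.0% of the 100 strongest and 22.7% of the 28512 pooled windows below the threshold. All matches are of exact letters on both strands, and they describe the windows without showing the bound site. With 100 bp on either side of the summit in place of 50, pdi-2 held the core as well. The share of all thresholded windows that held it at this width was not counted, and the shares above do not apply to it.

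The longer elements were in part of these genes. CACGTG, an E-box that contains ACGT, was in pdi-1 and pdi-3, and in 7.80% of thresholded windows. In both genes it was part of the same palindrome, CCACGTGG, which 1.55% of thresholded windows held, against 0.509% of those below the threshold. This palindrome was not among the motifs planned for the search. It was picked because it recurs in these genes, so its presence there is a description. TGACG was in pdi-1, at chrIII:3701798-3701802, and in pdi-6, at chrX:7068536-7068540. In both genes it overlapped an ACGT copy. Of thresholded windows 21.8% held TGACG, as did 28.0% of the 100 strongest. The short element CCACG, which lies within the palindrome as well, was in each of the 4 isomerase windows, and the ero-1 window held none. It had 2 copies each in pdi-1 and pdi-3, on the 2 strands of the palindrome, and 1 each in pdi-2 and pdi-6. It was in 23.1% of thresholded windows and in 37.0% of the 100 strongest, where all 4 isomerase regions rank. The other motifs searched, TGACGTGG (in 1.88% of thresholded windows), the full palindrome TGACGTCA (0.739%), AGACGCAG (5.58%), the GATA-type TGATAA (15.5%) and the repeat GAGAGAGA (3.36%), were in no window of the 5 genes.

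pdi-2 differed in the arrangement of its elements. It held the box CCAAT in 2 copies, and the second was followed after 9 bases by CCACG, at chrX:4524151-4524169 on the plus strand. This span was centred 28 bp from the summit. Its CCACG end lay downstream of the outer annotated start, at 4524155, and so within the transcript. The 19 bp span has the layout of the ER stress response element of mammals, where NF-Y binds the CCAAT end and ATF6 or XBP1 the other end. This search was made only after the sequence had been seen. The layout was in 1 of the 1488 thresholded windows (0.0672%), that of pdi-2, and in 5 of 28512 below the threshold (0.0175%). CCAAT alone was in pdi-2, pdi-3 and pdi-6. It was in 18.1% of thresholded windows and 25 of the 100 strongest, against 21.0% below the threshold. In pdi-6 it was centred 1 bp from the summit. The windows of the 4 isomerase genes were 55.4% to 66.3% GC, against a median of 46.5% over the thresholded windows (5th to 95th percentile 31.7% to 59.4%), and that of ero-1 was 41.6%. The part of base composition in these motif counts was not tested.

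Of 12 other thiol-disulfide genes of the secretory pathway, 3 were called, against 4.81% of all protein-coding genes, with a median signal of 327 (278 to 385), below that of each of the 4 pdi genes. erp-44.1, related to the mammalian thioredoxin-like protein ERp44 that retains ERO1 in the ER, had a signal of 385 (166 and 219 in replicates 1 and 2) and rank 152. Its summit lay 332 bp upstream of the innermost of its 3 annotated starts. C14B9.2, which RefSeq names a putative PDIA4-type isomerase, had 327 (129 and 195) and rank 192, 125 bp upstream of its start. F47B7.2, a sulfhydryl oxidase by its RefSeq name and so an enzyme that can make disulfides without ERO1, had 278 (125 and 151) and rank 246. C14B9.2 and erp-44.1 held CACGTG in the summit window, and F47B7.2 held CCACG without ACGT.

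The remaining 9 thiol-disulfide genes were not called. dnj-27, an ER protein with J and thioredoxin domains, had a pooled candidate at 42.0, ZK973.11 at 61.3, F35G2.1, another sulfhydryl oxidase, at 73.2 and C35B1.5 at 69.1. The candidates of txdc-12.1 and txdc-12.2 were at 33.3 and 33.2, near the lowest pooled signal of 32.5. erp-44.2, erp-44.3 and T10H10.2 had no pooled candidate in the window.

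The collagen hydroxylases, whose prolyl enzymes PDI-2 is part of, were looked up as well. Of the prolyl 4-hydroxylase subunit genes dpy-18, phy-2, phy-3 and phy-4 and the lysyl hydroxylase gene let-268, 0 of 5 were called, and at the share of 4.81% over all protein-coding genes a count of 0 in so few genes is near the background. The strongest value was a pooled candidate of 59.1 at phy-2, 109 bp downstream of its start. dpy-18, phy-3, phy-4 and let-268 had no pooled candidate, and let-268 had a region of 20.5 at rank 26017 in the replicate 2 list. pdi-2, with 961, was the single gene of this enzyme group with a thresholded region.

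ER folding chaperones were called at 8 of 12 genes (66.7%), against 4.81% of all protein-coding genes, with a median signal of 753 and a range of 135 to 4418 that spans all 4 pdi genes. hsp-3, an ER Hsp70 of the BiP type, at 4418, and enpl-1, the ER Hsp90, at 3391 stood above pdi-1. The calreticulin gene crt-1 had 1595 and the cyclophilin gene cyn-5 had 1036, between pdi-3 and pdi-2. The J-domain gene dnj-20 at 470, the glucosyltransferase gene uggt-1 at 305, dnj-7 at 246 and the Hsp70-family gene stc-1 at 135 stood below pdi-6. The paralog of hsp-3, hsp-4, was not called, with a candidate of 71.7 at rank 4146, nor were the calnexin gene cnx-1 (73.2), uggt-2 (54.2) and cyn-6 (40.9). Over the 3 other lists 11 of 29 genes (37.9%) were called, against 4.81% of all protein-coding genes. Of the 15 called genes including the pdi genes 12 held ACGT at the summit, beside 34.1% of all thresholded windows and 63.0% of the 100 strongest.

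**Figure D4:**
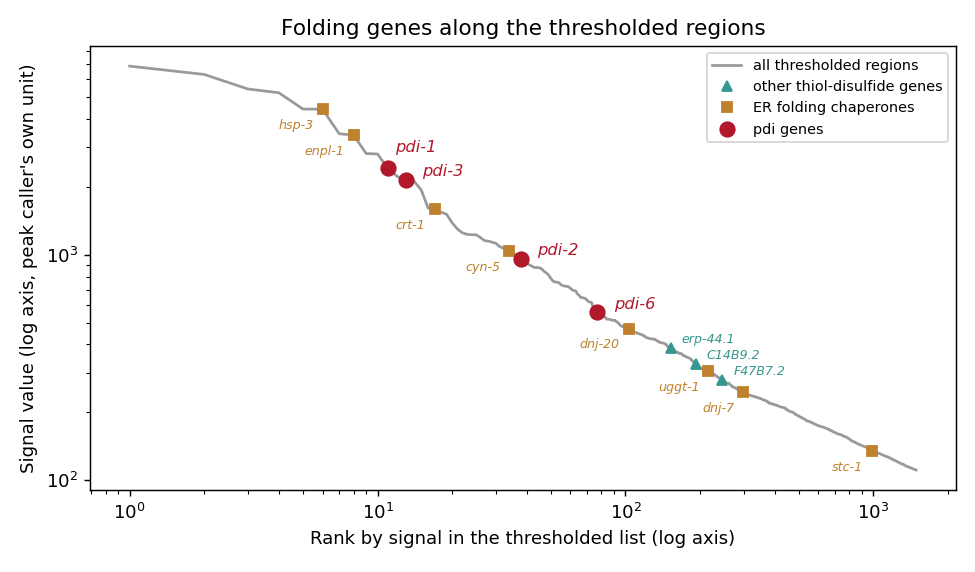
Signal of the 1488 thresholded regions against their rank (both log axes, peak caller's own unit), with the called genes marked. pdi-1 (rank 11) and pdi-3 (rank 13) lie between enpl-1 (rank 8) and crt-1 (rank 17), pdi-2 (rank 38) follows cyn-5 (rank 34), pdi-6 (rank 77) precedes dnj-20 (rank 103), and the other thiol-disulfide genes (triangles) start at rank 152.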

How the data were processed

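The authors deposited region lists on ce11, called per replicate and on both together against a control, with a thresholded list derived by irreproducible discovery rate from the pooled and replicate lists, per the text deposited with them. Each deposited region has a signal value and a −log10 q-value of the authors' peak caller (the q-value reaches a ceiling of 3.18, shared by 766 thresholded regions), and a summit offset, which the authors deposited as another number per region. The signal formula, aligner, caller and caller version stand as not given in the sources used here. Depth is unknown for want of read counts. The control was not analysed here. The thresholded list equals the 1488 strongest of 30000 pooled regions (median width 404 bp); replicates 1 and 2 had 30000 and 26493.

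Positions are 1-based. Starts came from Ensembl release 115 and sequence from RefSeq WBcel235. Regions were assigned to genes and ranked by signal with Python 3.11.15 and pandas 2.3.3, and window assignment and motif search were tested on simulated data. Motifs were exact matches within 50 bp of summits. Named genes are the 5 genes, genes sharing their regions, called genes of the lists, and the nearest upstream genes on the same strand; uncalled list members, other neighbours and calu-1 were added after their values were seen. The genes and lists were chosen with earlier results of these data known. Of 31 list names, 29 matched an annotated gene (C30H7.2 and tmx-1 did not). No test was run: the design has a single group, and regions are not replicates.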

Additional observations from a re-analysis of the deposited data

How the results depend on the processing

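Of 57 alternative values, 52 stayed within the limits set for them and 5 did not. Signals and ranks under another assignment rule came from the same region of the same list, so they had little room to change. Where pdi-3 lost its region, its signal and rank were left out of the 57. Using 1 replicate's own strongest regions, rank ran from 36 to 38 for pdi-2, from 13 to 14 for pdi-3 and from 80 to 83 for pdi-6 (main ranks 38, 13 and 77), and stayed at 11 for pdi-1. With the window of 500 bp upstream to 100 bp downstream, 1 gene's region (that of pdi-1) also stood in another gene's window. With the main window it was 2, because the pdi-3 summit lies outside the narrow one, and with 2000 to 500 bp it was 3. The number of the 5 genes called was 4 with the 2000 to 500 bp window (6.71% of all protein-coding genes called), with any overlap (5.4%), with the 744 strongest regions (2.8%), on replicate 1 alone (4.71%) and on replicate 2 alone (4.83%). It was 3 with the 500 to 100 bp window (3.64%) and with the nearest start alone (3.83%), where pdi-3 has no signal or rank. Of the other listed genes 10 to 12 were called over the same settings, beside 11 in the main one. The gene lost was stc-1, with the 744 strongest regions and on replicate 1 alone. ACGT was in 3 of the 5 windows with 25 bp on either side of the summit and 4 with 100 bp. On replicate 1 alone it was in 4, with the ero-1 candidate of that list, and on replicate 2 alone in 3. The share of all windows with ACGT was not counted at these settings, so these counts have no background beside them. No paired analysis was possible because only 1 group exists. Unknown read depth limits what can be said of ero-1 and of the uncalled genes.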

Other observations

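In the thresholded list the calumenin gene calu-1, with a signal of 2223 at rank 12, stood between pdi-1 and pdi-3; it was named after its value was seen. A second pdi-3 candidate, at chrI:7020437-7020840 over the start of the gene, had a signal of 76.2 at rank 3525 in the pooled list. In replicate 1 it had a signal of 90.0 at rank 528, with its summit 152 bp downstream of the start, and replicate 2 had no second candidate in the window.

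The word AACTGCA was in the summit windows of pdi-1, pdi-2 and pdi-6, in 3.09% of all thresholded windows and in 1.64% of those below the threshold. ACACGT was in pdi-1, pdi-3 and pdi-6, in 11.5% of thresholded windows and 3.67% of those below. Both words were picked because they recur in these genes, so their presence there is a description. The variant of the ER stress response element with ATTGG, 1 base and CCACG was in 1 thresholded window, that of crt-1, and in 2 of 28512 below the threshold.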
